A study of Mus musculus with 8 samples.

Results

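CAM_1 is a cluster of single-cell transcriptomes that the study named as central nervous system (CNS)-associated macrophages. Its members were all cells with this cluster name in the deposited annotation, 3191 of 32457 annotated cells (9.83%). The cells were leukocytes of adult male C57BL/6 mice, taken from the brain tissue and from 2 of its membranes, the pia and the dura. Before tissue was taken, an antibody against CD45 was injected into the blood, so that the sort kept cells that were CD45+ and not labelled from the blood side (CD45iv-). Control animals were compared with animals 24 h and 72 h after transient middle cerebral artery occlusion (MCAO), a model of ischemic stroke in which a brain artery is closed for a time and then reopened. The study's methods name naive mice as the controls of the sequencing, whereas its figure captions speak of sham-operated ones. There was 1 library each of control brain, control pia, control dura, pia at 24 h, dura at 24 h and brain at 72 h, and 2 libraries of brain at 24 h. The study pooled animals for each compartment, and the number behind a single library is not given in the sources used here, so p-values measure only the spread between these libraries, which may be technical.

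CNS-associated macrophages live at the borders of the brain, in the pia, the dura and the spaces around vessels, while microglia live in the brain tissue itself. Border macrophages are known for Pf4 (platelet factor 4, a chemokine), Lyve1 (a hyaluronan receptor), Mrc1 (the mannose receptor CD206) and Cd163 (the hemoglobin scavenger receptor). Microglia are known for Tmem119, P2ry12 (a receptor for ADP) and Sall1 (a transcription factor). The 2 clusters named after similar cells, CAM_2 with 1976 cells and Macro_2 with 3840 cells, served for comparison within each library.

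CAM_1 held 221 cells in control brain, 648 and 165 cells in the replicates of brain at 24 h and 212 cells in brain at 72 h. The pia libraries gave 574 cells (control) and 859 cells (24 h), and the dura libraries 206 and 306 cells. The largest shares of annotated cells were in pia, 20.4% in the control library and 21.9% at 24 h, and the lowest was 3.5% in brain at 72 h. The replicates of brain at 24 h differed, with 14.1% in replicate 1 and 4.76% in replicate 2. The summed depth of CAM_1 ran from 240329 unique molecular identifiers (UMIs, counts of single RNA molecules) in replicate 2 of brain at 24 h to 1832029 in pia at 24 h. The median cell had 964 UMIs in that replicate and between 1712 and 2518.5 UMIs in each of the other 7 libraries. Levels are given as CPM, the UMIs of a gene scaled to a fixed total for the CAM_1 cells of a library. Where a sentence gives 4 brain values, their order is control, 24 h replicate 1, 24 h replicate 2 and 72 h, and where it gives 2 values for pia or dura, control comes before 24 h.

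The name CAM_1 matched its markers in pia and dura, not in control brain or brain at 24 h, and in part in brain at 72 h. Lyve1 was at 0 CPM in control brain, 0 and 25 CPM in replicates 1 and 2 of brain at 24 h and 2.09 CPM in brain at 72 h, against 525 and 450 CPM in pia and 147 and 149 CPM in dura. Pf4 was at 31.5, 4.66, 179 and 487 CPM in the same 4 brain libraries and at 3031, 2277, 4077 and 2406 CPM in the 4 pia and dura libraries. For both genes every pia and dura library was above every brain library.

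Microglia markers ran the other way. Tmem119 was at 3085 CPM in control brain, 1344 and 291 CPM in brain at 24 h and 194 CPM in brain at 72 h, and between 25.9 and 51.3 CPM in pia and dura. P2ry12 was at 5033, 573, 129 and 60.6 CPM in brain and between 41.3 and 128 CPM in pia and dura, so that the groups overlapped for this gene. Sall1 was at 8.36 to 62.4 CPM in brain and at 0 in each pia and dura library. Summed over 12 microglia markers, the level was 31033 CPM in control brain, the brain library with the most Tmem119 and P2ry12. It was between 1945 and 3267 CPM in the pia and dura libraries, where Fcrls was the most abundant.

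**Figure D1:**
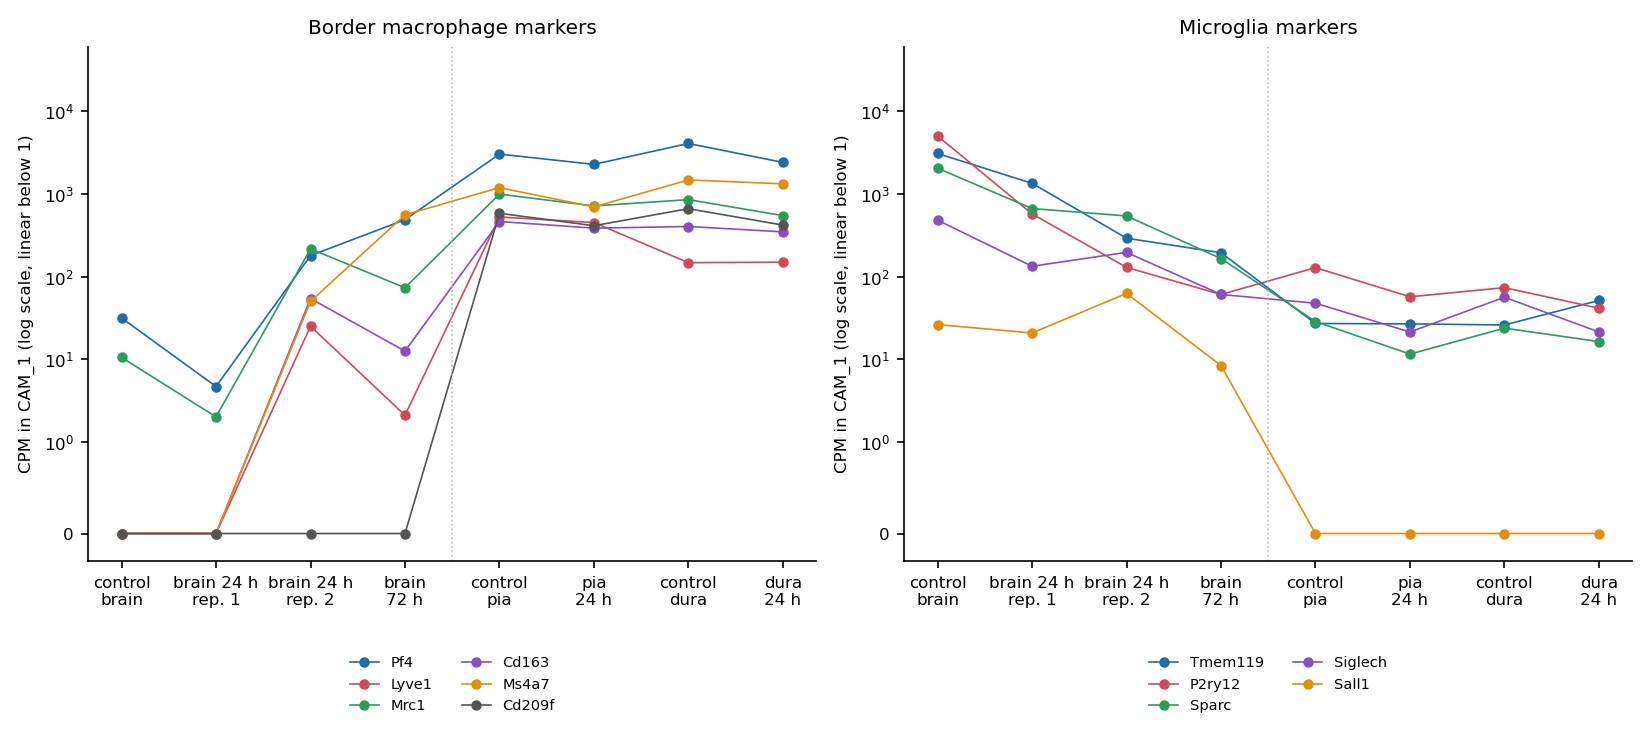
Levels of 6 border macrophage markers (left) and 5 microglia markers (right) in the CAM_1 cells of each library, in CPM on a log axis that is linear below 1. Each point is 1 library, lines join the points of a gene, and the dotted line parts the brain libraries from pia and dura. Cd209f was at 0 in the 4 brain libraries, and Sall1 was at 0 in the 4 pia and dura libraries.

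The markers were also counted cell by cell. Each cell was thinned to 1000 UMIs, which left out shallower cells, and was sorted by whether it held a UMI of 7 border markers (Pf4, Lyve1, Mrc1, Cd163, Ms4a7, Cbr2, F13a1) or of 7 microglia markers (Tmem119, P2ry12, P2ry13, Sall1, Siglech, Gpr34, Slc2a5). The thinning kept 214, 631, 77 and 172 cells of the brain libraries, 552 and 787 of pia and 189 and 296 of dura. In control brain 210 of 214 CAM_1 cells held a microglia marker alone (98.1%, exact 95% interval 95.3 to 99.5%) and 3 held a border marker (1.4%, 0.29 to 4.04%). Lymphoid cells, which should lack both kinds, held a microglia marker in 45.3% of cells of that library. In control dura 189 of 189 cells held a border marker (100%, 98.1 to 100%). The intervals cover counting error only.

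The share of CAM_1 cells with a border marker was 0.951% and 10.4% in the replicates of brain at 24 h and 57% (49.2 to 64.5%) in brain at 72 h. In pia it was 97.6% and 97.3%, and in dura at 24 h 97%. Without thinning the shares were 1.36%, 1.7%, 6.06% and 64.6% in brain and 98.3% or more in pia and dura. Lymphoid cells gave a background of 0% to 2.13% in the brain libraries and 10.3% to 18.1% in pia and dura after the same thinning, from median depths before thinning of 1181 to 2010 UMIs, against 1499 to 2558.5 UMIs for CAM_1. In replicate 1 of brain at 24 h none of 55 lymphoid cells held a border marker, and the share in CAM_1 lay within the interval of that background (up to 6.49%), as it did in control brain (up to 6.72%). The course was not particular to CAM_1. After the same thinning the share in CAM_2 was 0%, 1.98%, 23.9% and 59.2% in brain and 88.3% to 96.8% in pia and dura. In Macro_2 it was 51.6%, 21.8%, 35.6% and 16.8% in brain and 59.8% to 75.7% in pia and dura.

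Microglia markers were not confined to brain. The share of CAM_1 cells with at least 1 of them was 99.5%, 70.8%, 50.6% and 32.6% in the brain libraries, 30.6% and 15% in pia and 24.3% and 18.9% in dura. In lymphoid cells it was 45.3%, 23.6%, 16.5% and 16.5% in brain, 6.53% and 2.4% in pia and 4.2% and 1.4% in dura, below the CAM_1 share in each library. Cells with neither kind made up 28.7%, 41.6% and 32% of CAM_1 in brain at 24 h and 72 h, and 2.16% or less in every other library.

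**Figure D2:**
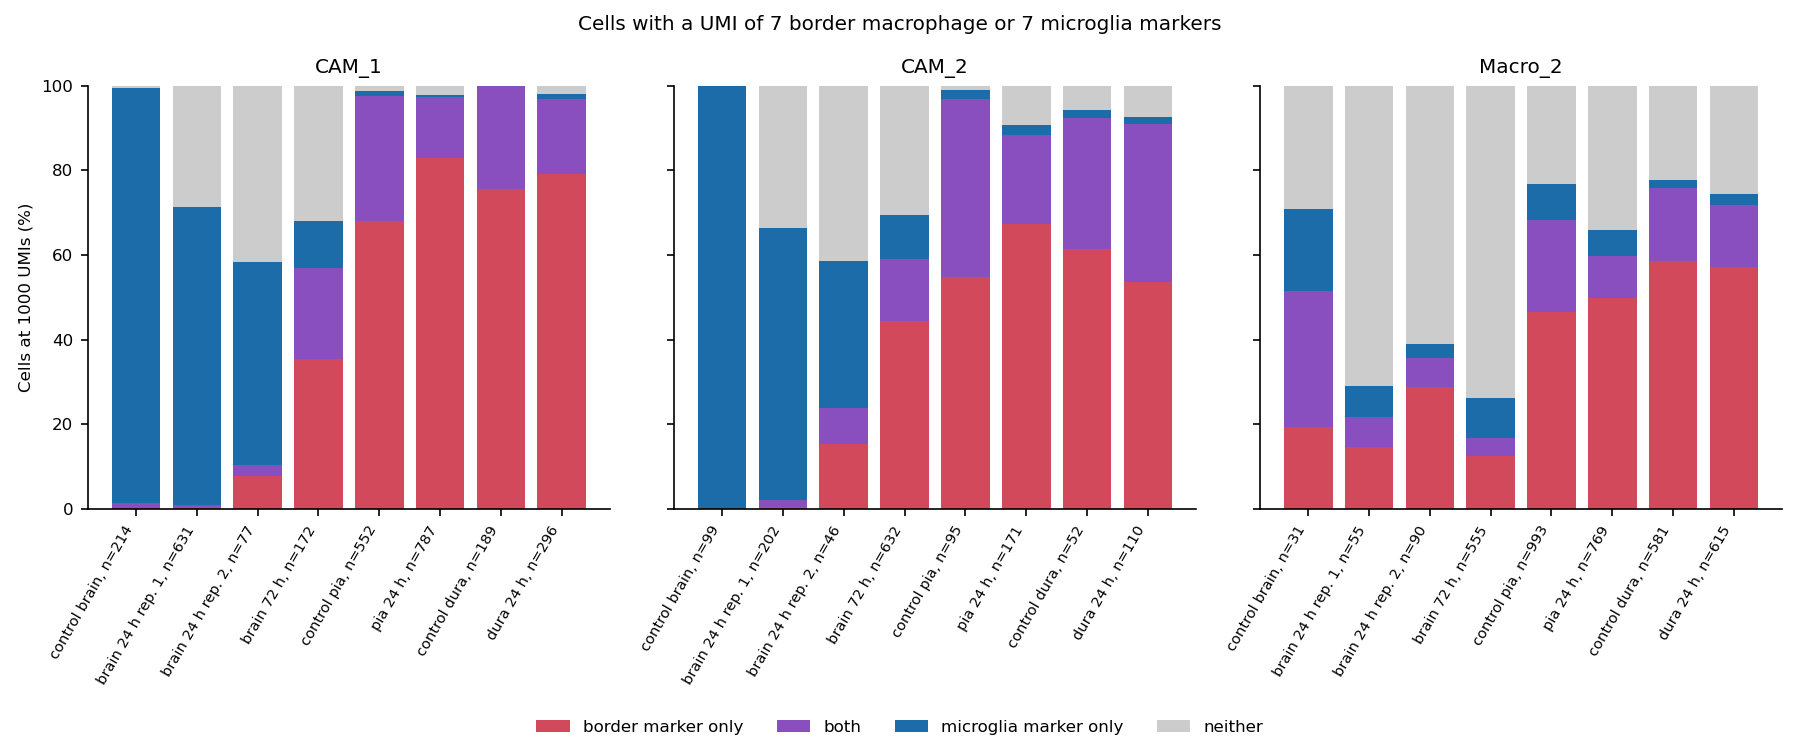
Shares of cells of CAM_1, CAM_2 and Macro_2 with a UMI of border macrophage markers only, of both kinds, of microglia markers only or of neither, in percent of cells at 1000 UMIs, 1 bar per library with its number of cells. In CAM_1, microglia marker only was the main class in control brain (98.1%) and border marker only the main class in control dura (75.7%).

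Whole profiles ordered the libraries alike. In each library the CAM_1 sum was correlated with the other clusters there over log2(CPM + 1) of 9645 to 12229 genes, as a description, since all clusters of a library share its depth. The most similar cluster was Micro_2 in control brain (r = 0.944) and Micro_3 in both replicates of brain at 24 h (r = 0.967 and 0.88). In brain at 72 h it was CAM_2 (r = 0.954), and in all 4 pia and dura libraries it was Macro_2 (r = 0.922 to 0.947). Micro_2 and Micro_3 are clusters that the study named as microglia. Among pia and dura libraries CAM_1 correlated at 0.905 to 0.949, while replicate 2 of brain at 24 h correlated with the other libraries at 0.551 to 0.747.

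Brain at 72 h and replicate 2 of brain at 24 h stood apart in other ways. Their gene lists held 31053 genes, against 32285 in each of the other 6 libraries, and genes were compared over the 30406 that were shared. In replicate 2 the CAM_1 cells were the shallowest, though 5 other libraries held fewer UMIs in all. Genes of red blood cells summed to 699 CPM in CAM_1 of replicate 2 and 359 CPM in that of brain at 72 h, against 18.8 CPM or less in each of the other libraries, with Hbb-bs, a hemoglobin gene, as the most abundant at 399 and 211 CPM. Libraries shared at most 43 cell barcodes in a pair, and at most 1 that was a CAM_1 cell in both. What set these 2 libraries apart was not tested. Counts of calls between tissues and between 24 h and control are given with and without them, as are the main genes of each tissue comparison, while 72 h against 24 h has no value without its library.

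CAM_1 was compared with CAM_2 within each of the 8 libraries, and the genes of highest ratio were chemokines and cytokines. Chemokines draw leukocytes to a tissue. Ccl2, Ccl7 and Ccl12 are monocyte attractants, Cxcl2 is a neutrophil attractant, Cxcl10 attracts T cells, and Il1a and Il1b encode interleukin-1. The clusters were made from these same counts, so the ratios are a description with no test. Of 3171 genes at 50 CPM or more in either cluster, 198 had a log2 ratio of CAM_1 to CAM_2 above 0 in all 8 libraries and 359 had one below 0. Of the listed genes at 50 CPM or more, 14 of 15 immediate early genes, 11 of 12 genes of inflammatory cytokines and NF-kappaB feedback, 5 of 9 CC chemokines and 2 of 4 CXC chemokines were above 0 in all 8, against 6.24% of all genes compared. Immediate early genes are switched on within minutes by many stimuli, tissue dissociation among them, and their part in the other ratios was not tested. Fos, one of them, had a median ratio of 0.62 on the log2 scale (lowest 0.05, highest 1.92). Below 0 in all 8 were 8 of 14 lysosome genes, among them the cathepsins Ctsb, Ctsd and Ctss, and 4 of 8 genes of glycolysis and hypoxia, Eno1, Pkm, Tpi1 and Gapdh, against 11.3% of all genes compared. The highest median ratio was that of Ccl7, at 3.36 on the log2 scale (lowest 1.57, highest 4.35). The next were Cxcl2 (3.29), Cxcl10 (3.18), Il1b (3), Ccl2 (2.61), Errfi1 (2.4), Il1a (2.39), Ccl12 (2.37), Maff (2.29) and Phlda1 (2.28). The rank of Cxcl10 rested on the setting. Its median was 2.52 with 1 count added. With cells thinned as for the marker counts it was 2.09, the lowest among the genes from Ccl7 to Phlda1. Errfi1 feeds back on the EGF receptor, and Maff is a small Maf transcription factor.

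Ccl7 (chr11:82045712-82047525, GRCm38) was at 338 CPM in CAM_1 of control brain, 953 and 462 CPM in brain at 24 h, 479 CPM in brain at 72 h, 16646 and 8981 CPM in pia and 10873 and 8406 CPM in dura. In CAM_2 of the same libraries it was at 30.5, 45.7, 153 and 74.7 CPM in brain and 1201, 832, 1048 and 962 CPM in pia and dura. Within each library the CAM_1 value was above the CAM_2 value, while both clusters were lower in brain. Ccl12 (chr11:82101845-82103400) had another pattern, at 8506 CPM in CAM_1 of control brain, 15901 and 3266 CPM at 24 h, 282 CPM at 72 h, 7357 and 7203 CPM in pia and 3838 and 3031 CPM in dura. Control brain and control pia were near each other for this gene, and brain at 72 h was lowest.

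The ratio of CAM_1 to CAM_2 was below 0 in all 8 libraries for Ctsk, Mmp12 and Ccr2. Ctsk (median log2 ratio -2.05) encodes cathepsin K, Mmp12 (-1.67) a macrophage elastase and Ccr2 (-1.26) the receptor for Ccl2. Tnfaip8l2, Tifab, Tmem141, Mrpl34, Tomm5, Gpsm3 and Syngr1 followed, with medians between -1.25 and -0.94. The counts added to each sum put a gene with no UMI in either cluster below 0 where the CAM_1 sum is deeper. In control pia that sum held 1368715 UMIs, against 317218 in CAM_2. Mmp12 was at 0 CPM in CAM_1 of each control library, and Ctsk at 1.31 CPM on average. Part of their ratios, and of others among the 359 genes below 0, may come from this. Pf4 and Lyve1 themselves did not separate CAM_1 from CAM_2. In CAM_2 Pf4 was at 3342 and 2127 CPM in pia and 3143 and 2063 CPM in dura, and Lyve1 at 404 and 429 CPM in pia and 247 and 100 CPM in dura, values on both sides of those of CAM_1.

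Against Macro_2, 7 of 7 genes of MHC class II presentation were lower in CAM_1 in all 8 libraries, as were 3 monocyte markers (Ccr2, Plac8 and S100a4) of the 5 that reached 50 CPM. H2-Aa, H2-Ab1 and H2-Eb1 encode chains of the class II major histocompatibility complex (MHC), which presents peptides to helper T cells. Their median log2 ratios were -5.04, -5.03 and -5.64. Retnla (-5.47), Ear2 (-5.36), Ccr2 (-5.21), Sirpb1c (-4.9), AA467197 (-4.71), S100a4 (-4.69) and Plbd1 (-4.51) were also lower. Ratios were above 0 in all 8 for Adamts1 (3.47), Crybb1 (3.43), Slc40a1 (3.19), the iron exporter ferroportin, Phyhd1 (2.99) and Sox4 (2.89). The same held for Adgrg1 (2.75), Syngr1 (2.74), Fscn1 (2.65), Ccl12 (2.47) and Npl (2.45). With cells thinned as for the marker counts, the medians were -2.82 for AA467197, 2.21 for Crybb1 and 1.9 for Sox4. With 1 count added that of AA467197 was -3.76. Of 3073 genes, 406 were above 0 (13.2%) and 244 below 0 (7.94%) in every library, and with 1 count added 395 and 249. Among those above 0 were 9 of 14 lysosome genes, 9 of 15 immediate early genes and 5 of 11 microglia markers. The 406 include Adamts1, at 0 CPM in CAM_1 of control dura, and may include other genes with no UMI in either cluster of a library. The added counts put such a gene above 0 where the Macro_2 sum is deeper. Sox4 had the same lowest log2 ratio as Adamts1, 1.72. Ccl12 was thus above both other clusters in each library. Il1b was not, since Macro_2 held more of it in each library, for example 1085 CPM in control pia against 761 CPM in CAM_1.

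**Figure D3:**
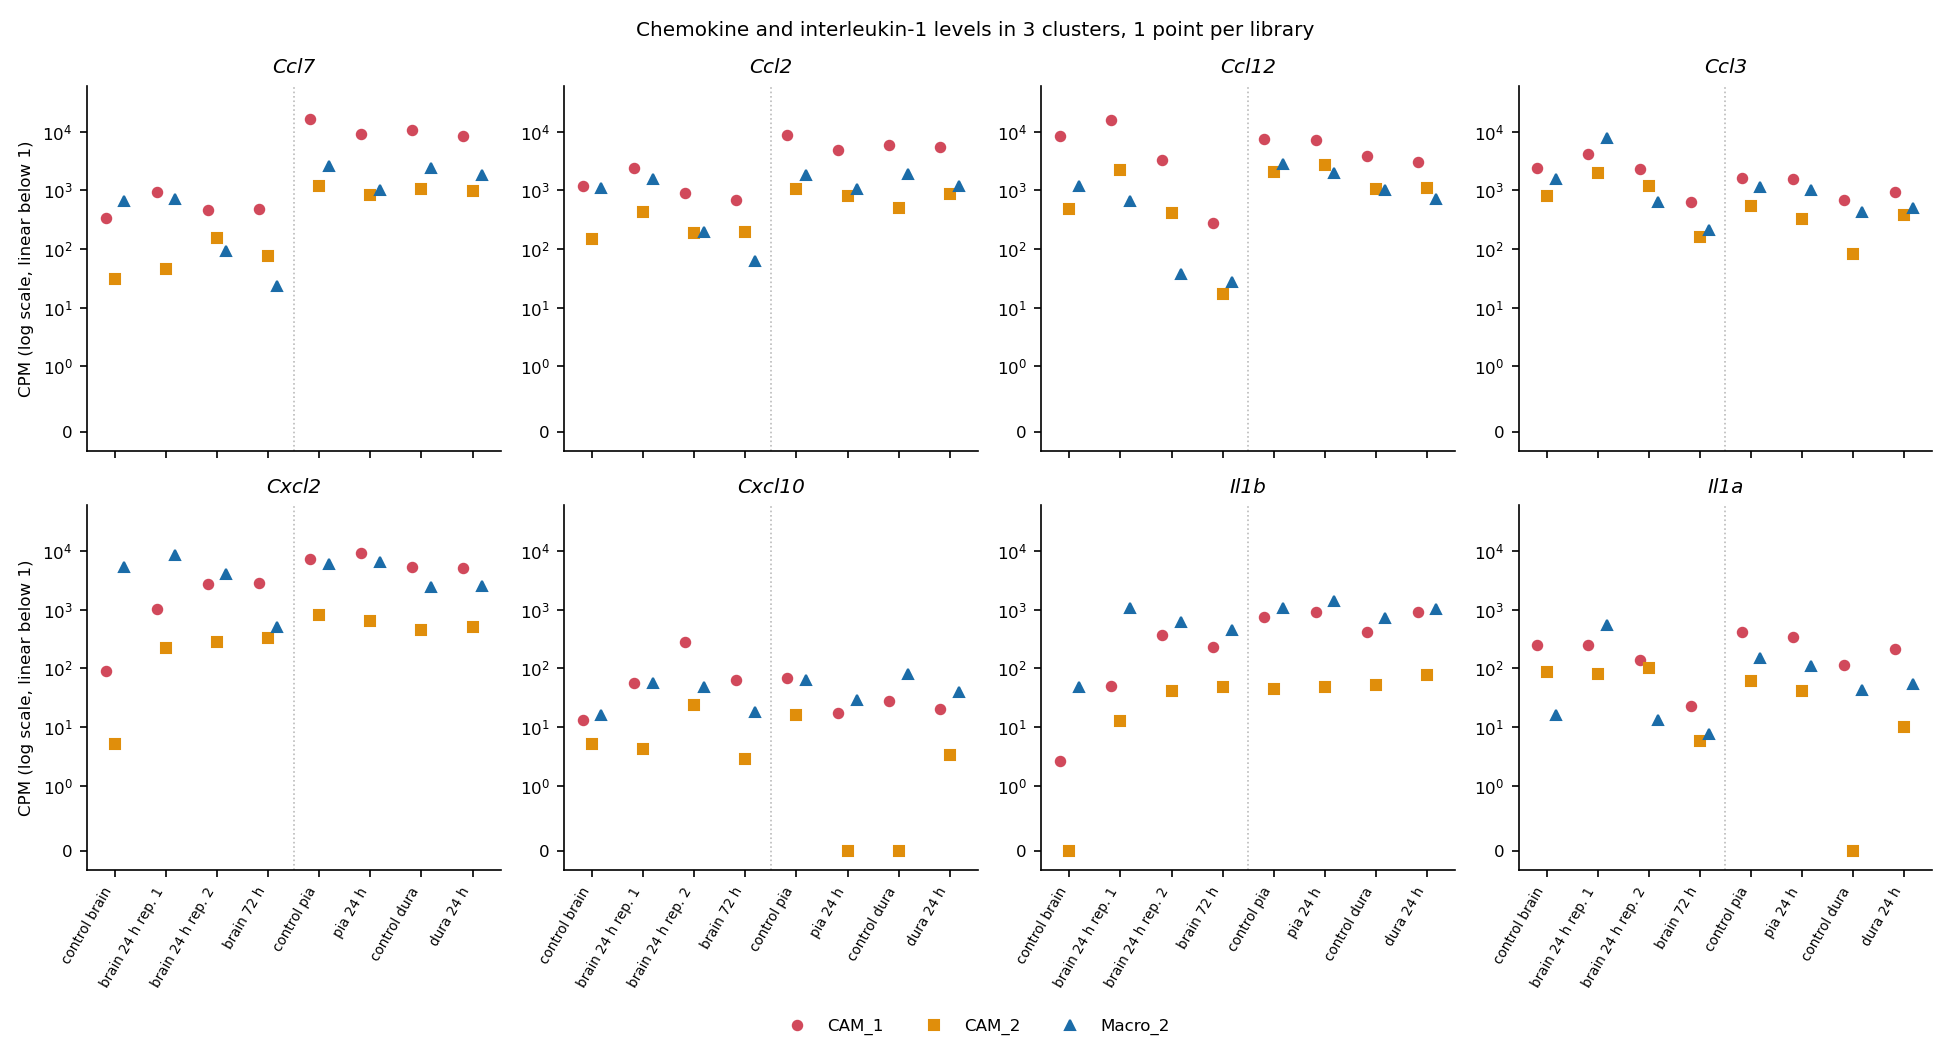
Levels of 6 chemokine genes and of Il1b and Il1a in CAM_1, CAM_2 and Macro_2 of each library, in CPM on a log axis that is linear below 1; each point is the sum over the cells of 1 cluster in 1 library. CAM_1 lay above CAM_2 in each library for Ccl7, Ccl2, Ccl12, Cxcl2, Cxcl10, Il1b and Il1a, and above Macro_2 in each library for Ccl12.

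The promoters of the 10 genes highest over CAM_2 were looked up because these genes stood together. RefSeq (GRCm38.p6) gave 250 bases before the start site for 7 of the 10 genes, with 10 start sites in all, and Ccl7, Ccl2 and Phlda1 were not matched. The letters of the NF-kappaB motif, a site for the factor that switches on inflammatory genes, were in at least 1 promoter of 3 genes, Cxcl2, Cxcl10 and Maff, and in 7.25% of 32851 promoters of this length. The AP-1 motif TGANTCA, read on both strands, was in 2 genes, Cxcl10 and Il1a, and in 6.75% of all promoters. Il1b, Errfi1 and Ccl12 held neither. The counts are of genes with a match at any start site, and Maff and Errfi1 had more than 1 site. The percentages are of single promoters, so the 2 measures are not alike. The 2 NF-kappaB matches in Cxcl2 overlapped, as did 2 of the 3 in Cxcl10. The promoters of 4 genes are shown, 5' to 3' on the gene's strand, with the letters that match either motif in capitals. The Cxcl2 promoter is at chr5:90903649-90903898 (plus strand), that of Cxcl10 at chr5:92348890-92349139 (minus), that of Il1a at chr2:129309973-129310222 (minus) and that of Ccl12, which has no match, at chr11:82101595-82101844 (plus).
Cxcl2: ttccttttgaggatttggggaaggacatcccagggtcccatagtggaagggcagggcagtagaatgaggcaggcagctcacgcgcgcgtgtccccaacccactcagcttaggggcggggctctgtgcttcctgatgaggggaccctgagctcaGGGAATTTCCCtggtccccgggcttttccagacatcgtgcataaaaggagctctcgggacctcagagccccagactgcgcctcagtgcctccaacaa
Cxcl10: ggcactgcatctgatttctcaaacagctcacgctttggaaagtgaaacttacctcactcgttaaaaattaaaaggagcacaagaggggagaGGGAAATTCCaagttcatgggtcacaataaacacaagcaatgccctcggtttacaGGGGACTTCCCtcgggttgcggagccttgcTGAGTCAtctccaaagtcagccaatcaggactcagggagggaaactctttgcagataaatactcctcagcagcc
Il1a: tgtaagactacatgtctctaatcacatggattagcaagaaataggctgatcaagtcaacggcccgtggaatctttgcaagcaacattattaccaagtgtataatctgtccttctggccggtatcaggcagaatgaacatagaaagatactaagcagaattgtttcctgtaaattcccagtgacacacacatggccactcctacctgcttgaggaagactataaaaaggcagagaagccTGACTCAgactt
Ccl12: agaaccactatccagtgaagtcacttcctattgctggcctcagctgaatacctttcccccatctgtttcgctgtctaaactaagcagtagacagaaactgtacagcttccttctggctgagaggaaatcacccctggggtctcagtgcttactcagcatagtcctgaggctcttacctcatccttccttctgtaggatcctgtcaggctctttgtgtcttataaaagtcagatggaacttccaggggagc
A match is a run of letters and not a measured binding site.

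The first comparison between libraries asked how the CAM_1 cells of pia and dura differed from those of brain. The study digested brain at another enzyme concentration and for another time than pia and dura, and spun brain on a Percoll gradient. Tissue and preparation therefore cannot be told apart in comparisons with brain. UMIs were summed per library and fitted in edgeR's quasi-likelihood model with tissue and time, and a gene was called where its p, adjusted after Benjamini and Hochberg, was under 0.05 and its change at least 2-fold. Brain at 72 h, the only library of its time, has its own term in this fit and carries no weight in the tissue differences. Border macrophage markers, MHC class II genes, metallothioneins and a few chemokines were higher in pia than in brain, and microglia markers and Lpl and Cd9 were lower. Of 8718 genes tested, 277 were called (3.18%), 210 higher (2.41%) and 67 lower (0.769%). With scaling by library size alone, 102 were higher and 61 lower. The counts rested on single libraries: 1961 genes were called without replicate 2 of brain at 24 h, and 71, 121, 97, 134 and 50 without control brain, control dura, control pia, dura at 24 h and pia at 24 h. With the 6 libraries that share the longer gene list, 1864 of 7749 genes were called (24.1%).

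Of 15 border markers 9 were higher in pia, with a median log2 fold change of 6.4 over the 15, against -0.12 over all genes tested. Pf4 was higher by 5.89 ± 1.16 (SE, edgeR adjusted p = 0.0318) and Lyve1 by 7.31 ± 1.22 (adjusted p = 0.0163). These differences set the 2 pia libraries against control brain and both replicates of brain at 24 h. Folr2, a folate receptor, was higher by 6.4 ± 0.89 (adjusted p = 0.00823). The call of Pf4 was lost with library size scaling, with kit version as a covariate and without control brain, control dura, dura at 24 h or pia at 24 h, and that of Lyve1 with library size scaling and without control brain. Folr2, Cd209f, Cd209g, Stap1, Colec12, Sparc, Ccl8, Cxcl1, Il10, H2-Aa and Gpx3 were called under every setting tried, and other genes named for this comparison lost their call under at least 1. Without replicate 2 of brain at 24 h, the brain library with the most Lyve1, the difference of Lyve1 was 11.97, that of Cd163 11.73 and that of Mrc1 7.87. In the 6 libraries of the longer list Pf4 was higher by 7.98 and Folr2 by 7.68, and 14 of 15 border markers were called. Lyve1 had no UMI in brain there and was at least 303-fold higher, on a floor of 3 UMIs. Cd209f, a C-type lectin, had no UMI in brain and 582 and 412 CPM in pia, at least 420-fold higher than a floor of 3 UMIs over the brain libraries allows. Mrc1 (4.41 ± 1.38, adjusted p = 0.144) and Cd163 (5.8 ± 1.39, adjusted p = 0.0656) did not pass with all 8 libraries and did with the 6 of the longer list.

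Of 12 microglia markers 8 were lower in pia, with a median of -3.43. Tmem119 was lower by 5.44 on the log2 scale (-5.44 ± 1.08, edgeR adjusted p = 0.0326) and Sparc, a matrix glycoprotein, had -5.5 ± 0.63 (adjusted p = 0.00439). Sall1 was at least 24.6-fold lower. P2ry12 had -3.5 ± 1.03 and did not pass (adjusted p = 0.119), and was at -2.16 without control brain. In the 6 libraries of the longer list Tmem119 had -6.02, Sparc -5.74 and P2ry12 -4.17, and each was called.

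Of 10 CC chemokines 3 were higher in pia than in brain. Ccl7 was higher by 4.83 ± 0.69 (edgeR adjusted p = 0.00898), and Ccl24, an eosinophil attractant, by 4.83 ± 0.58 (adjusted p = 0.00538). Ccl8 was at 2.62, 0, 4.16 and 33.4 CPM in brain and at 574 and 496 CPM in pia (9.24 ± 0.99, adjusted p = 0.00439). Ccl2 did not pass, with 1195, 2427, 899 and 696 CPM in brain and 8681 and 4800 CPM in pia (2.49 ± 0.64, adjusted p = 0.0794). Cxcl1, a neutrophil attractant, was at 0, 0.666, 4.16 and 18.8 CPM in brain and 403 and 497 CPM in pia (9.07 ± 0.73, adjusted p = 0.00439). The libraries of the groups did not overlap for any of these 5 genes. All 5 were called in the 6 libraries of the longer list, with 4.59 for Ccl7, 4.53 for Ccl24, 10.11 for Ccl8, 2.18 for Ccl2 and 9.76 for Cxcl1.

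Cd83, Il10 and Nfkbid were the 3 of 15 cytokine and NF-kappaB feedback genes called higher. Cd83 was at 815, 524, 262 and 81.5 CPM in brain and 5795 and 3634 CPM in pia (3.43 ± 0.58, edgeR adjusted p = 0.0167). Il10, an anti-inflammatory cytokine, was at 0, 0, 0 and 6.27 CPM in brain and 110 and 45.3 CPM in pia. Il1b, at 2.62 to 374 CPM in brain and 761 and 907 CPM in pia, did not pass (4.13 ± 1.12, adjusted p = 0.0934), nor did Cxcl2 (3.93 ± 0.97, adjusted p = 0.0715). With only the 6 libraries of the longer list Cd83 (3.09), Il10 and Il1b (5.24) were called and Cxcl2 (4.54) was not. Il10, with no UMI in brain there, was at least 45.9-fold higher.

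MHC class II genes and Cd74, their invariant chain, made 4 of 6 tested members higher in pia. H2-Aa was at 21, 18.7, 16.6 and 290 CPM in brain and 799 and 337 CPM in pia (5.03 ± 0.51, edgeR adjusted p = 0.00439). Apoe, which carries lipids, was at 1329, 548, 3612 and 36604 CPM in brain and 57784 and 41583 CPM in pia (5.3 ± 0.8, adjusted p = 0.0107). Brain at 72 h was the brain library nearest to pia for both genes. Mt1 and Mt2, metallothioneins that bind zinc, and Hmox1, which degrades heme, were the 3 of 11 tested genes of metal and oxidant defence called higher, with 2.81 ± 0.46 for Mt1 (adjusted p = 0.0149). H2-Aa (4.9), Apoe (6.07) and Mt1 (2.69) were called in the 6 libraries of the longer list too.

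Of 15 genes of lipid handling and of stroke-associated myeloid cells (SAMC), a cluster that the study named, 2 were called higher in pia, Lgals1 and Apoe, and 3 lower, Lpl, Cd9 and Mmp12, with a median of -1 against -0.12 over all genes. Lpl, lipoprotein lipase, was at 41.9, 963, 1639 and 91.9 CPM in brain and 2.92 and 6 CPM in pia (-6.27 ± 1.17, edgeR adjusted p = 0.0268). Mmp12 was at 0, 523, 208 and 2.09 CPM in brain and 0 and 1.64 CPM in pia (-7.15, edgeR adjusted p = 0.0319), so that control brain and control pia were both at 0. Without pia at 24 h its difference was -1.02 and not called, and its call was also lost with DESeq2 and without control brain or control dura. Nor was Mmp12 called in the 6 libraries of the longer list. Csf1, a macrophage growth factor, was at 28.8, 332, 724 and 35.5 CPM in brain and 9.5 and 4.37 CPM in pia and did not pass (-4.47 ± 1.26, adjusted p = 0.104). Its difference was -2.37 without pia at 24 h. All 3 genes were highest in the replicates of brain at 24 h. Cd14, an LPS co-receptor that the study also tied to SAMC, was at 1004, 11780, 3241 and 301 CPM in brain and 10580 and 13112 CPM in pia, so that the groups overlapped. It did not pass (2.12 ± 0.85, edgeR adjusted p = 0.256, and 1.29 without control brain). Cd9, a tetraspanin, fell by 4.14 on the log2 scale from brain to pia (adjusted p = 0.00851). In the 6 libraries of the longer list 3 of 13 tested members were higher, Fabp5, Lgals1 and Apoe, and 4 lower, Lgals3, Abcg1, Trem2 and Cd9. Of all 7749 genes tested there, 13.7% were called higher and 10.3% lower. The call of Lpl was lost without control dura, pia at 24 h or replicate 2 of brain at 24 h, in the libraries of the longer list and with library size scaling.

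The genes with the largest fitted changes in this comparison were Gpx3, Cd209f, Stap1, Colec12 and Cd209g on the higher side and Nav3, Upk1b, Sall1, Slco4a1 and Adamts1 on the lower side. Gpx3, a secreted glutathione peroxidase, was at 0, 0, 0 and 37.6 CPM in brain, 248 and 735 CPM in pia and 643 and 1611 CPM in dura. Adamts1, a matrix protease, was at 388, 430, 1585 and 127 CPM in brain and between 0 and 5.11 CPM in pia and dura. For both genes the brain libraries and the others did not overlap. Stap1, a signaling adaptor, and Colec12, a scavenger lectin, were at 0 in the control and both 24 h libraries of brain, and at 18.8 and 4.18 CPM in brain at 72 h. The fitted changes of Gpx3, Stap1 and Colec12 rest on brain libraries without a UMI, since brain at 72 h carries no weight in them.

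Dura was compared with the same brain libraries, so its differences are not independent of those of pia. Of 8718 genes 355 were called (4.07%), 274 higher (3.14%) and 81 lower (0.929%), and with library size scaling 141 were higher and 102 lower. In the libraries of the longer list 2118 of 7749 were called (27.3%). The count was 2243 without replicate 2 of brain at 24 h, and 107, 39 and 8 without control brain, control dura and dura at 24 h. With the listed kit version as a covariate it was 0, so that each dura call named here was lost in that fit. That version groups dura at 24 h with brain at 72 h. By its gene list and barcode starts, dura at 24 h went with the libraries of the longer list instead. Of the genes called higher in pia, 81.4% were also called in dura, which is 62.4% of those of dura. Again 9 of 15 border markers were higher (median 5.66) and 8 of 12 microglia markers were lower (median -3.76, and -3.45 with genes at 0 set to their bound, against -0.18 over all genes).

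Several genes reached their highest levels in dura. H2-Aa, at 1841 and 1193 CPM in dura, was higher than in brain by 6.58 ± 0.53 (edgeR adjusted p = 0.00152). Cd74, at 362, 498, 141 and 963 CPM in brain, was at 13551 and 9783 CPM in dura (5.43 ± 0.7, adjusted p = 0.00564). Cd36, a lipid scavenger receptor, was at 330 and 245 CPM in dura and 66.6 CPM or less in each brain library (4.37 ± 0.92, adjusted p = 0.0365). Jun, a subunit of AP-1, was lower in dura (-2.33 ± 0.5, edgeR adjusted p = 0.0388), at 1783 and 691 CPM against 11394, 5113, 5039 and 2499 CPM in brain. Jun is an immediate early gene, and the part of the unlike dissociation of brain and dura was not tested. H2-Aa (6.47), Cd74 (5.06), Cd36 (4.85) and Jun (-2.44) were also called in the 6 libraries of the longer list. The call of Jun was lost without dura at 24 h, where 0 genes were called lower. Lyve1 was higher in dura by 5.63 (edgeR adjusted p = 0.0388), and by 10.31 when brain 24 h replicate 2 was left out. Its call was lost with DESeq2 and library size scaling and without control brain, control dura or dura at 24 h. Markers of other cells stood beside these genes. Mast cell genes summed to 32.3 and 92.6 CPM in dura and 2.09 CPM or less in brain, with Tpsb2, a mast cell tryptase, as the most abundant at 15.1 and 82.6 CPM. Cma1, a mast cell chymase that this list of 4 genes leaves out, was at 36.7 and 42.6 CPM in dura, 2.62 CPM in control brain and 0 in the other brain libraries. Neutrophil genes summed to 160 and 348 CPM in dura against 109 to 312 CPM in brain. Iglc1, an immunoglobulin light chain, had the 4th highest fitted change of this comparison, at 79.8 and 210 CPM in dura and 0 in each brain and pia library. Igkc, another light chain, was at 252 and 349 CPM in dura and 4.18 CPM or less in brain. The 5 B cell markers summed to 49.6 and 48.8 CPM in dura and 4.16 to 36.7 CPM in brain, mostly from Cd79b at 45.3 and 42.6 CPM in dura, where Pax5 was at 0. B cells also carry MHC class II. The part of these cells in the result was not tested.

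The comparison of dura with pia asked whether the border cells differed between the 2 membranes. With all 8 libraries edgeR called 0 of 8718 genes (0.00%), 163 had an unadjusted p under 0.05, and DESeq2 called 5. In the 4 pia and dura libraries alone 260 of 6851 genes were called (3.80%), 138 higher (2.01%) and 122 lower (1.78%) in dura. With the 6 libraries of the longer list 92 of 7749 were called (1.19%), 65 higher (0.839%) and 27 lower (0.348%). The fit of 4 libraries leaves 1 residual degree of freedom, and its p-values rest on a spread pooled over genes. MHC class II genes, Cd36, Spic and Cfp were higher in dura there, and Lyve1, Timd4, Hspa1a and genes of sterol synthesis were lower.

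H2-Aa was at 799 and 337 CPM in pia and at 1841 and 1193 CPM in dura, and Cd74 at 6527 and 4208 CPM in pia. In the 4 libraries H2-Aa was higher in dura by 1.58 ± 0.16 (edgeR adjusted p = 3.03e-10), and with all 8 by 1.55 ± 0.49 (adjusted p = 1). The size of the difference was near the same and its error differed. Of 6 tested MHC class II genes 4 were called higher in the 4 libraries and 3 in the 6. Spic, a transcription factor of iron-recycling macrophages, was at 24.1 and 36 CPM in pia and 116 and 183 CPM in dura (2.38 ± 0.22 in the 4 libraries, adjusted p = 1.39e-11). Cfp, properdin, a part of the alternative complement pathway, was at 138 and 299 CPM in pia and 612 and 927 CPM in dura. Cd36 was at 85.5 and 93.3 CPM in pia and 330 and 245 CPM in dura (1.72 ± 0.18 in the 4 libraries, adjusted p = 3.18e-10). With all 8 libraries its difference was 1.78 (adjusted p = 1), and it was 0.68 without control dura. The groups did not overlap for H2-Aa, Spic, Cfp or Cd36.

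Lyve1 was lower in dura by 1.64 on the log2 scale (-1.64 ± 0.17 in the 4 libraries, edgeR adjusted p = 3.03e-10, and -1.68 ± 0.99, adjusted p = 1, with all 8). Timd4, a receptor for phosphatidylserine on dying cells, was at 82.6 and 59.5 CPM in pia and 34.5 and 15 CPM in dura (-1.54 ± 0.29 in the 4 libraries, adjusted p = 0.000157). Hspa1a, a heat shock chaperone, was at 684 and 991 CPM in pia and 121 and 149 CPM in dura (-2.56 ± 0.17, adjusted p = 1.83e-16). Of 9 heat shock genes 3 were called lower in the 4 libraries, Hspa1a, Hspa1b and Dnajb1, and 2 in the 6, with a median of -0.75 in the 4 against -0.02 over all genes.

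Genes of sterol metabolism, a list added after their values were seen, were lower in dura. Of 19 tested members 14 were called lower in the 4 libraries and 10 in the 6, with a median of -1.58. Idi1, an enzyme of the isoprenoid steps, was at 75.3 and 44.2 CPM in pia and 10.8 and 6.26 CPM in dura (-2.73 ± 0.38 in the 4 libraries, edgeR adjusted p = 5.45e-07). Sqle, squalene epoxidase, was at 49 and 52.4 CPM in pia and 0 and 2.5 CPM in dura. In brain Idi1 was at 0 to 7.33 CPM.

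Genes of other cells differed between dura and pia as well. Of the neutrophil markers S100a8 was at 2.92 and 19.7 CPM in pia and 49.6 and 160 CPM in dura. Igkc, an immunoglobulin light chain, was at 11.7 and 25.1 CPM in pia and 252 and 349 CPM in dura, and T cell genes summed to 34.5 CPM or less in every library. Neutrophil genes summed to 50.4 and 84.1 CPM in pia and 160 and 348 CPM in dura. Dendritic cell genes summed to 113 and 93.3 CPM in pia and 129 and 96.4 CPM in dura, mostly from Cd209a at 100 and 80.8 CPM in pia and 121 and 85.1 CPM in dura. The part of these cells in the MHC class II difference was not tested.

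**Figure D4:**
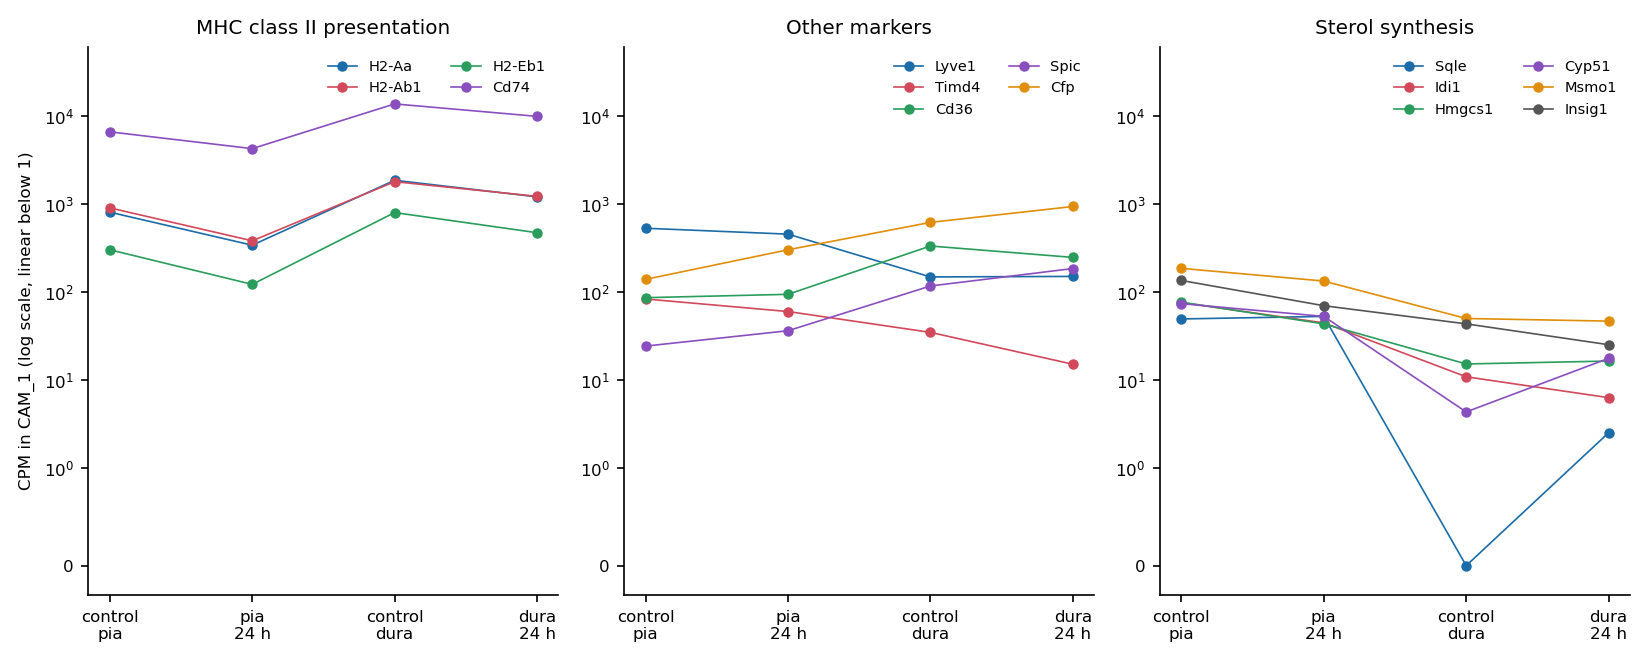
Levels in the CAM_1 cells of the pia and dura libraries, in CPM on a log axis that is linear below 1, for MHC class II genes and Cd74 (left), other markers (middle) and genes of sterol synthesis (right). Points are single libraries and lines join the points of a gene; the 4 genes on the left were at higher levels in both dura libraries than in both pia libraries, and Sqle was at 0 in control dura.

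Among the CAM_1 cells of pia and dura, those with a Lyve1 UMI were compared with those without one, each thinned to 1000 UMIs, in a split added after values were seen. In control pia 178 of the 552 cells held a Lyve1 UMI. There Cd74 was at 4792 CPM in the cells with Lyve1 and 7449 CPM in those without, and Ccl7 at 18410 and 15118 CPM. In pia at 24 h Cd74 was at 1955 and 5590 CPM and Ccl7 at 10402 and 7664 CPM. In control dura, with 25 cells that held Lyve1, Cd74 was at 11280 and 13366 CPM and Ccl7 at 9320 and 10768 CPM. In dura at 24 h, also with 25 such cells, Cd74 was at 5800 and 10018 CPM and Ccl7 at 12800 and 7480 CPM. Cd74 was lower in the cells with Lyve1 in all 4 libraries, and Ccl7 was higher in 3 of them. Without thinning Ccl7 was higher in all 4, with 15073 CPM in 46 cells with Lyve1 and 9669 CPM in 160 cells without it in control dura. These are sums over cells of 1 library each, with no test.

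The comparison of 24 h with control asked how CAM_1 cells differed after MCAO. If the controls were naive, effects of the operation and of the stroke cannot be told apart. With all 8 libraries edgeR called 0 of 8718 genes (0.00%), 449 had an unadjusted p under 0.05, and DESeq2 called 20. Without replicate 2 of brain at 24 h 433 were called. In the pia and dura libraries alone 370 of 6851 genes were called (5.40%), 174 higher (2.54%) and 196 lower (2.86%). With the 6 libraries of the longer list 370 of 7749 were called (4.77%), 181 higher (2.34%) and 189 lower (2.44%). Of each of these sets, 236 genes (63.8%) were in the other. Pia and dura had 1 library per time, so that the spread of a group was not measured there. In the fit of pia and dura Spp1, Lgals3, Slc7a11, Saa3 and 7 of 22 ribosome biogenesis genes were called higher at 24 h, and 5 of 15 immediate early genes, Maf, Irgm1 and Txnip lower. The ribosome biogenesis list was added after values were seen, so its count is only a description. In brain Egr1, Maf and Txnip were above control in replicate 2 and below it in replicate 1.

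Spp1 (osteopontin, chr5:104435118-104441050) was at 2.62 CPM in control brain and 2088 and 1086 CPM in brain at 24 h, at 30.7 and 870 CPM in pia, and at 15.1 and 126 CPM in dura. It was higher in each 24 h library than in the control of its tissue. In the 4 pia and dura libraries the rise was 4.53 ± 0.25 (edgeR adjusted p = 9.09e-18), and with all 8 it was 5.24 ± 0.98 (adjusted p = 0.537). Lgals3, galectin-3, was at 44.6, 928 and 524 CPM in control and 24 h brain, 16.1 and 125 CPM in pia and 81.9 and 387 CPM in dura (2.53 ± 0.22 in the 4 libraries, adjusted p = 3.71e-12). Slc7a11, the cystine transporter, was at 5.24, 189 and 329 CPM in brain, 5.11 and 132 CPM in pia and 19.4 and 139 CPM in dura (3.84 ± 0.32, adjusted p = 3.71e-12). The same direction held in all 4 pairs for each gene. In the 6 libraries of the longer list Lgals3 and Slc7a11 were called too, while Spp1 was not (5.32 ± 1.02, adjusted p = 0.0886).

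Saa3, an acute phase protein, had no UMI in any control library and was at 9.33 and 37.4 CPM in brain, 682 CPM in pia and 63.8 CPM in dura at 24 h. Of its 1323 UMIs at 24 h, 1249 were from pia. Adam8, a surface protease, was at 5.24, 266 and 691 CPM in brain, 28.5 and 100 CPM in pia and 8.62 and 40.1 CPM in dura (1.84 ± 0.27 in the 4 libraries, edgeR adjusted p = 1.83e-06). Pkm, pyruvate kinase, was at 197, 1528 and 724 CPM in brain, 189 and 732 CPM in pia and 194 and 398 CPM in dura (1.55 ± 0.18, adjusted p = 6.88e-08). Pkm was the 1 gene of 10 tested in the glycolysis and hypoxia list that was called in the 4 libraries. Gdf15, a stress cytokine, went from 13.2 to 46.9 CPM in pia and from 90.6 to 317 CPM in dura.

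Ribosome biogenesis genes, a list added after values were seen, made 7 of 22 tested members higher in the 4 libraries and 11 of 25 in the 6, and none lower. Mybbp1a was at 13.1, 84.6 and 137 CPM in brain, 14.6 and 43.1 CPM in pia and 6.47 and 20 CPM in dura (1.54 ± 0.37 in the 4 libraries, edgeR adjusted p = 0.00291). Grwd1 was at 10.5, 87.3 and 49.9 CPM, 9.5 and 35.5 CPM and 4.31 and 12.5 CPM in the same order.

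Of 15 immediate early genes 5 were lower at 24 h in the 4 libraries, Fos, Jun, Egr1, Klf2 and Btg2, with a median over the list of -0.72, and 7 were lower in the 6. Fos was at 10008 CPM in control brain, 3290 and 3304 CPM in brain at 24 h, 2036 and 812 CPM in pia and 1889 and 1003 CPM in dura (-1.15 ± 0.15, edgeR adjusted p = 1.7e-07). Fos was lower in each 24 h library than in the control of its tissue. Egr1 was lower in pia, from 435 to 152 CPM, and in dura, from 472 to 111 CPM, but in replicate 2 of brain at 24 h it was at 2800 CPM against 1738 CPM in control brain.

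Irgm1, an interferon-induced GTPase, was at 41.9, 2 and 20.8 CPM in brain, 35.1 and 2.73 CPM in pia and 36.7 and 2.5 CPM in dura (-3.71 ± 0.45 in the 4 libraries, edgeR adjusted p = 3.32e-08). Txnip, which binds thioredoxin, went from 178 to 38.2 CPM in pia and from 162 to 33.8 CPM in dura, and was at 404, 139 and 499 CPM in control and 24 h brain, again on both sides of the control. Maf, a transcription factor of resident macrophages, was at 256 and 122 CPM in pia and 250 and 91.4 CPM in dura (-1.25 ± 0.18, adjusted p = 9.97e-07), and at 83.9, 19.3 and 316 CPM in brain, where the replicates lay on both sides of the control. H2-Eb1 fell by 1.05 on the log2 scale in the 4 libraries (edgeR adjusted p = 7.1e-06).

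Zfp36, which degrades cytokine messenger RNA, was at 728 and 274 CPM in pia and 765 and 377 CPM in dura, and Nfkbiz, an inhibitor-like regulator of NF-kappaB, at 770 and 324 CPM and 761 and 302 CPM. Both were called lower in the 4 libraries. Of the 10 genes highest over CAM_2, Cxcl10 was called at 24 h, lower in the 4 libraries (67.2 and 17.5 CPM in pia, 28 and 20 CPM in dura), but it was at 13.1, 56.6 and 279 CPM in control and 24 h brain. Its 24 h change was -1.55 ± 0.31 in the 4 libraries (edgeR adjusted p = 0.000503) and 0.13 with all 8 (adjusted p = 0.997). That of Ccl7 was -0.66 ± 0.15 in the 4 libraries (adjusted p = 0.00187), less than 2-fold. Ccl7 was at 338, 953 and 462 CPM in control and 24 h brain, 16646 and 8981 CPM in pia and 10873 and 8406 CPM in dura, and so was higher than control in brain and lower in pia and dura. Neutrophil genes summed to 84.1 CPM in pia at 24 h against 50.4 CPM in control pia, and to 348 against 160 CPM in dura, and their part in the changes was not tested.

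**Figure D5:**
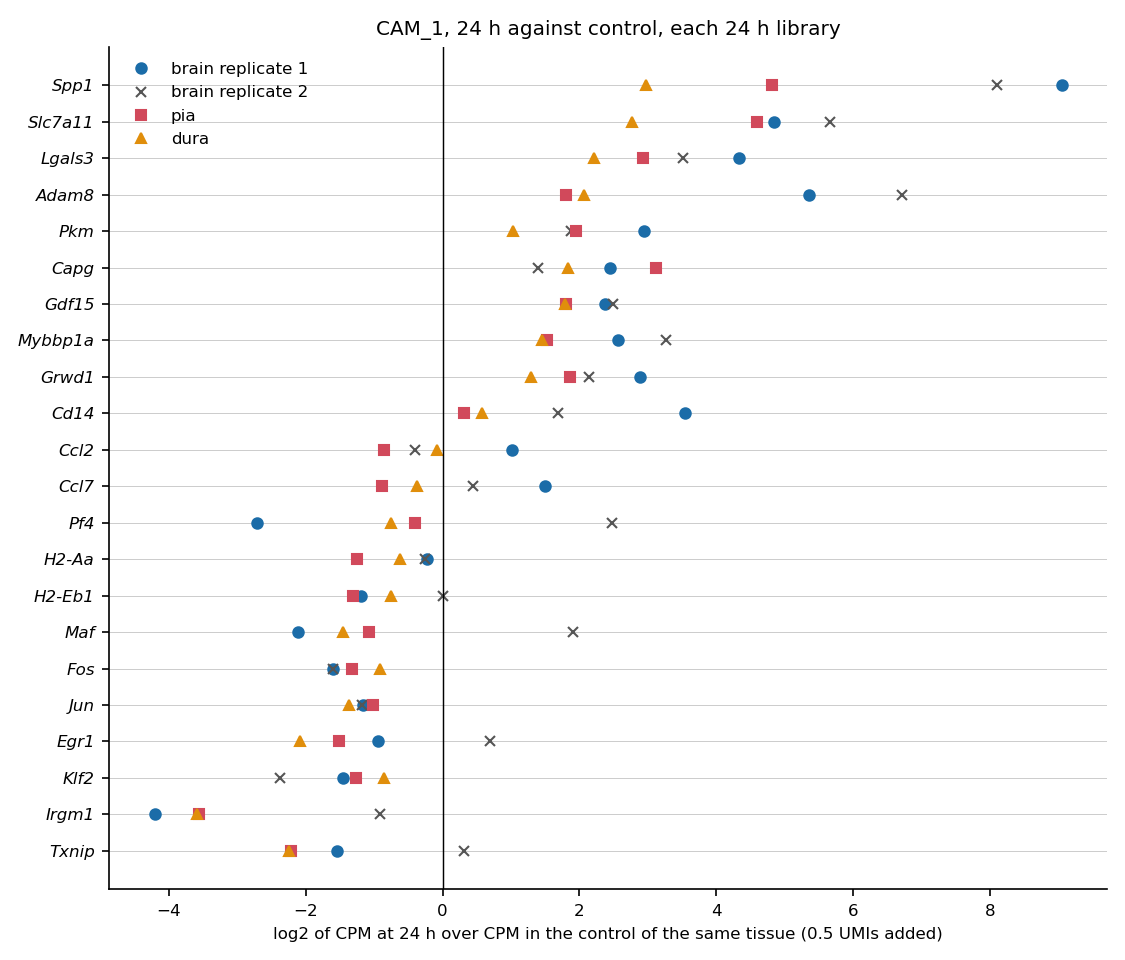
Log2 of the CPM at 24 h over the CPM in the control library of the same tissue in CAM_1, with 0.5 UMIs added to each sum, for 22 genes; each point is 1 of the 4 libraries at 24 h, and both brain replicates share 1 control. Spp1 to Cd14 lay above 0 in all 4 libraries, while Ccl2, Ccl7, Pf4, Maf, Egr1 and Txnip lay on both sides of 0.

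Brain at 72 h is a single library that the model compared with 24 h on the spread of the others. Of 8718 genes 16 were called (0.184%), all higher. The count was 0 without control brain, control dura, dura at 24 h or replicate 1 of brain at 24 h, and 2879 without replicate 2. It was also 0 with the listed kit version as a covariate. In simulated data edgeR recovered 0.5% of the genes changed 4-fold in this comparison. Since the spread at 72 h was not measured, single genes are given by their levels, with no test. Fabp5, a fatty acid carrier, was at 2.62 CPM in control brain, 7.33 and 62.4 CPM at 24 h and 1843 CPM at 72 h. Gpnmb, a glycoprotein of phagocytes, was at 0, 0.666, 4.16 and 771 CPM in the same order. Ly6c2, a surface protein of inflammatory monocytes, was at 0, 0, 8.32 and 257 CPM, and Chil3, a chitinase-like protein, at 0, 6, 8.32 and 690 CPM. Each of the 4 genes was highest in brain at 72 h among the brain libraries.

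H2-Aa was at 290 CPM in brain at 72 h against 18.7 and 16.6 CPM at 24 h, and Ifitm3, an antiviral membrane protein, at 1482 CPM against 101 and 150 CPM. Apoe was at 36604 CPM against 548 and 3612 CPM. The 9 monocyte markers summed to 2654 CPM in CAM_1 of brain at 72 h, with Fn1 as the most abundant at 886 CPM and each of the 9 detected, against 35.3 and 329 CPM at 24 h. Their part in the result was not tested. No 72 h library of pia or dura was analysed here.

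Whether other clusters of the same libraries shifted alike was tested in edgeR with the difference between clusters itself as the contrast. For pia against brain 56 of 8466 genes differed between CAM_1 and CAM_2 (0.661%), 48 with a higher difference in CAM_1 (0.567%) and 8 with a lower one (0.0945%). Cd83 was at 5795 and 3634 CPM in CAM_1 and 914 and 926 CPM in CAM_2 of pia, against 815, 524, 262 and 81.5 CPM and 468, 430, 188 and 50.1 CPM in brain (difference of log2 changes 1.84 ± 0.42, edgeR adjusted p = 0.0046). Apoe (2.26 ± 0.49, adjusted p = 0.00186) and Il1a (1.67 ± 0.41, adjusted p = 0.00945) also went further up in CAM_1. Lpl (-4.82 ± 0.55, adjusted p = 2.89e-14), Dusp6 (-1.76 ± 0.36, adjusted p = 0.000586), Ccl12 (-1.67 ± 0.44, adjusted p = 0.0223) and Cd9 (-1.6 ± 0.41, adjusted p = 0.0165) had a lower difference. DESeq2 called 4 genes, Cd83, Apoe, Lpl and Ccl12, so that the calls of Il1a, Dusp6 and Cd9 were lost with it. Each of the 7 edgeR calls was lost when 1 or more single libraries were left out, those of Lpl and Apoe when this was pia at 24 h. Without that library the difference of Lpl was -2.77 and that of Cd9 -0.62, and without control pia that of Cd9 was -2.44.

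Against Macro_2, 472 of 10167 genes differed in pia against brain (4.64%), 251 higher (2.47%) and 221 lower (2.17%) in CAM_1. Of 12 microglia markers 10 had a lower difference, and of 15 border markers 5 had a higher one. Pf4 was at 339, 25.3, 106 and 30.1 CPM in Macro_2 of brain and 817 and 407 CPM in that of pia, so that its difference was larger in CAM_1 (3.43 ± 0.56, edgeR adjusted p = 1.33e-07). Mrc1 (3.64 ± 0.53, adjusted p = 1.96e-09) and H2-Aa (4.08 ± 0.57, adjusted p = 2.04e-10) behaved alike. These 3 calls held under every setting tried, though the difference of Pf4 was 2.28 without control brain and that of Mrc1 6.13 without replicate 2 of brain at 24 h, while that of Ccl7 (2.44 ± 0.5, adjusted p = 0.000104) was lost without control brain, control pia or pia at 24 h.

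For 24 h against control 2 of 8466 genes differed between CAM_1 and CAM_2 (0.0236%), none higher and both lower in CAM_1, and 11 of 10167 between CAM_1 and Macro_2 (0.108%), 9 higher (0.0885%) and 2 lower (0.0197%). Against CAM_2 these were Mt2 and Hbb-bs. Mt2 was at 796 and 991 CPM in CAM_1 of pia and at 78.8 and 722 CPM in CAM_2 (-2.16 ± 0.42, edgeR adjusted p = 0.00134). Against Macro_2, Spp1 (3.03 ± 0.56, adjusted p = 0.00206) and Lgals3 (2.17 ± 0.41, adjusted p = 0.000312) had a larger difference in CAM_1. Macro_2 of control brain, a library with 35 such cells, was at 210 CPM for Spp1 and 775 CPM for Lgals3, against 2.62 and 44.6 CPM in CAM_1. Without control brain the difference of Spp1 was 1.87. The calls of Spp1 and Lgals3 were lost without control brain, that of Spp1 also with DESeq2 and library size scaling, and that of Lgals3 also with kit version as a covariate and without control dura, control pia or dura at 24 h. That of Mt2 was lost with DESeq2, with kit version as a covariate and without control brain, control dura, control pia or pia at 24 h. In the 6 libraries of the longer list only 1 of the 2 calls against CAM_2 was kept.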

How the data were processed

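Leukocytes from brain, pia and dura were profiled with the 10x Chromium 3' assay in 8 libraries. The deposited files hold UMI counts per gene and cell, which the authors made with Cell Ranger 6.0 on mm10 (from the submitters' processing notes) and left without normalization, and a table of the authors' cluster of each cell. The authors filtered cells, removed doublets and clustered before deposit; 32457 of 36854 barcodes carried a cluster. Libraries held 6591898 to 20754181 UMIs. The submitters' labels gave the groups; the title of the library of control pia speaks of brain, its other labels of pia. The study's supplementary list of 10x kit versions set dura at 24 h and brain at 72 h apart, whereas gene lists and barcodes set apart brain at 72 h and replicate 2 of brain at 24 h; both splits were tried. No per-sample column was left unused.

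Counts of CAM_1, CAM_2 and Macro_2 cells were summed per library (at least 30 cells). Sums were tested with edgeR 4.0.16 in R 4.3.3 (filterByExpr, TMM, robust quasi-likelihood fit of tissue and time, 3 residual degrees of freedom, two-sided, Benjamini-Hochberg), and with library as a block for differences between clusters. DESeq2 1.42.0 was the other tool, and the remaining alternatives are listed with their effect in the closing section. In data simulated for pia against brain, edgeR recovered 21% of 200 genes changed 4-fold among 8718 and 6.67% of its calls were false; for dura against brain it recovered 9.5% with 9.52% of calls false (20.7% with DESeq2), for dura against pia 8.5%, for 24 h against control 46% and for 72 h against 24 h 0.5%, where 31% of DESeq2's calls were false. Python 3.11.15 made CPM, log2 ratios (0.5 counts added) and exact binomial intervals (95%). A count of 0 was taken to allow 3 counts. Positions are of GENCODE M21 on GRCm38.

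CAM_1 and the gene lists were chosen with earlier results of these data known, and 3 lists (sterol synthesis, ribosome biogenesis, singled-out genes) after values were seen. Named were Pf4, Lyve1, the study's marker genes, the 4 most abundant and all called members of each list, the 5 highest and lowest called genes per comparison whose libraries went the same way, and the 10 highest and lowest ratios to CAM_2 and Macro_2. Of these, the genes that the biology turns on are given in the text. Aldoa, under 2 identifiers, was left out, and Clec7a was not analysed here. Results on some members of the lists are not reported here.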

Additional observations from a re-analysis of the deposited data

Results flagged for a closer look

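In 4 tests the same contrast differed between CAM_1 and another cluster of the same libraries, with library as a block in edgeR. For 24 h against control 2 genes differed between CAM_1 and CAM_2, Mt2 and Hbb-bs. Only 1 of these 2 calls was kept in the 6 libraries of the longer list. Hbb-bs, a hemoglobin gene, was at 15.1 and 6.26 CPM in CAM_1 and at 0 and 224 CPM in CAM_2 of dura (adjusted p = 0.00134), and its call was lost with DESeq2, with cells thinned to 1000 UMIs, with kit version as a covariate and without control dura or dura at 24 h. Between CAM_1 and Macro_2 11 genes differed, among them Slamf7 (2.5 ± 0.56, adjusted p = 0.0137) and Ifi27l2a (1.79 ± 0.39, adjusted p = 0.00715), an interferon-induced gene, with a larger difference in CAM_1. DESeq2 called 1 of the 11, Lgals3. The calls of Slamf7 and Ifi27l2a were lost with it, with kit version as a covariate and without control dura, control pia, dura at 24 h or pia at 24 h, and that of Slamf7 also with cells thinned to 1000 UMIs and without control brain. Mmp12 was another, at 0, 523 and 208 CPM in control and 24 h brain in CAM_1 and 242, 493 and 28.7 CPM in Macro_2 (9.18, adjusted p = 5.79e-09; 3.61 and lost without control brain, and lost with DESeq2 and with cells thinned to 1000 UMIs).

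For pia against brain 56 genes differed between CAM_1 and CAM_2, among them Serpine2 (-2.08 ± 0.51, edgeR adjusted p = 0.00945, lost with DESeq2, with cells thinned to 1000 UMIs and without control pia or pia at 24 h), and 472 between CAM_1 and Macro_2. Among the latter were Cfp (8.27 ± 0.62, adjusted p = 4.77e-36), Cxcl2 (3.68 ± 0.59, adjusted p = 3.01e-06, lost with library size scaling, with cells thinned to 1000 UMIs and without replicate 1 of brain at 24 h, and 2.31 without control brain), Ccl12 (-2.72 ± 0.5, adjusted p = 4.29e-06) and Csf1 (-6.2 ± 0.89, adjusted p = 8.06e-10). The calls of Ccl12 and Csf1 were lost without pia at 24 h.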

How the results depend on the processing

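No paired analysis was possible because the groups share fewer than 2 replicate numbers; tissue is a term of the fit with all 8 libraries. The cause of the changes in counts of calls given here was not tested. With DESeq2, pia against brain gave 503 calls, dura against brain 650, dura against pia 5, 24 h against control 20, 72 h against 24 h 122, the 24 h difference from CAM_2 0 and from Macro_2 1, and the pia difference from CAM_2 4 and from Macro_2 234. In the same order without a filter on low counts they were 806, 932, 28, 51 and 293, with 7 for the 24 h difference from Macro_2. With library size scaling pia against brain gave 163, 72 h against 24 h 8 and the 24 h difference from CAM_2 5. With cells thinned to 1000 UMIs dura against pia gave 1, 24 h against control 1, 72 h against 24 h 47, the 24 h difference from Macro_2 4 and the pia differences 20 and 219.

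With the listed kit version as a covariate, pia against brain gave 137 calls, dura against brain 0, 72 h against 24 h 0, the 24 h differences 1 and 3, and the pia differences 37 and 249. With the 6 libraries of the longer gene list the counts were 1864, 2118, 92 and 370 for the first 4 comparisons, 25 and 20 for the 24 h differences and 141 for the pia difference from CAM_2. With gene list family as a covariate, chosen after seeing the data, they were 1924, 2183, 111, 433 and 670, with 23, 20 and 123. Pia and dura alone gave 260 calls for dura against pia and 370 for 24 h against control.

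Leaving out 1 library at a time gave 50 to 1961 calls for pia against brain, 8 to 2243 for dura against brain, 0 to 112 for dura against pia, 0 to 433 for 24 h against control and 0 to 2879 for 72 h against 24 h. It gave 1 to 25 and 3 to 21 calls for the 24 h differences and 8 to 113 and 86 to 553 for the pia differences from CAM_2 and Macro_2. Each highest count came without replicate 2 of brain at 24 h. The difference of Hbb-bs from CAM_2 ran from -10.22 to -0.04, the latter without dura at 24 h, and was -0.12 without control dura. Where an arm was left with 1 library, it was assumed to vary like the others, and 72 h against 24 h gives no value without its library or in the 6 libraries of the longer list. Of genes named with a test, Maf reversed in the brain libraries alone (0.52). The 24 h change of Ccl7, at -0.05 with all libraries, was 0.08 with kit version as a covariate, 0.02 with gene list family and 0.88 in the brain libraries alone, and ran from -0.62 to 0.35 when 1 library was left out. That of Cxcl10, at 0.13, was -0.58 in the libraries of the longer list, -0.55 with gene list family and -1.55 in pia and dura alone, and ran from -1.28 to 1.52 when 1 library was left out. With cells thinned to 1000 UMIs, 131 genes were above 0 over CAM_2 in every library and 251 over Macro_2.

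Depth limits brain at 24 h replicate 2 most, where thinning to 1000 UMIs kept 77 of 165 CAM_1 cells.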
